A study of Mus musculus with 8 samples.

Results

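The genes described here are 10 non-collagen genes that activated fibroblasts use to build and remodel the extracellular matrix: Postn, Tnc, Fn1, Cthrc1, Lox, Loxl2, Thbs1, Thbs4, Comp and Fap. They were taken by symbol from a table of read counts with 27304 genes, where each had 1 row. The table comes from bulk RNA sequencing of heart tissue, and the mice were males of the inbred strain 129/Sv. 4 libraries, called adenine 1 to adenine 4, belong to the group fed 0.15% adenine for 13 weeks. The other 4, called control 1 to control 4, belong to the group on a standard diet over the same 13 weeks. The titles call these control libraries Sham, and the labels name no operation. Per the labels, the adenine diet brought about chronic kidney disease, seen in plasma creatinine and urea and in fibrosis of the kidney. The series' title names oxidative stress in the heart as the study's subject. No age is given, and neither is the part of the heart that was sampled. Whether each library is a separate animal is not stated, and the series' design text speaks of an analysis without replicates. The p-values therefore rest on the spread among these libraries alone, and that spread may be technical.

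Fibroblasts of the heart keep a low turnover of matrix until injury or the cytokine TGF-beta activates them. Activated fibroblasts secrete collagens together with adhesive glycoproteins such as fibronectin, periostin and tenascin-C, and with enzymes that cross-link the fibres. These non-collagen genes are used as signs of fibroblast activation after infarction or pressure overload. In whole tissue, fewer cells of a type and less RNA per cell cannot be told apart.

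Total counts were 15626620 to 29831706 per adenine library, with the lowest in adenine 2, and 24107554 to 33886385 per control library. Levels are given in CPM, counts scaled to library size after correction by TMM factors, which allow for differences in library composition. Cardiomyocyte markers were abundant in every library, with summed levels of 30742 to 52577 CPM on adenine and 44732 to 57062 CPM in controls. Adenine 3 stood apart from the other 7 libraries. It had 3193 CPM of 13 summed macrophage markers, against 363 to 595 CPM in the remaining adenine libraries and 440 to 746 CPM in controls, and it held the lowest cardiomyocyte sum. The diet differences below are therefore given with and without adenine 3. Adenine 2 is the shallowest library. The summed level of 5 atrial markers other than Nppa was 392, 26.7, 515 and 31.2 CPM in adenine 1 to adenine 4, against 480, 4058, 63.04 and 332 CPM in control 1 to control 4, so both adenine 2 and adenine 4 held little atrial RNA.

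The comparison of the diets asked whether these matrix genes differ in hearts of mice with adenine-induced kidney disease. High levels of these genes were found mainly in 1 library, adenine 3. It was the highest of the 8 libraries for 9 of the 10 genes, Comp being the exception, whereas adenine 3 was highest for 13.8% of the 20093 genes tested. For Postn, Cthrc1, Fn1, Tnc, Lox and Thbs1, adenine 3 was at least 5 times the median of the other 3 adenine libraries, which was so for 0.627% of genes tested. The 10 genes took 0.265% of all reads in adenine 3, against 0.0126% to 0.0301% in the remaining adenine libraries and 0.0196% to 0.0339% in controls. Lox, Tnc and Cthrc1 were the only members for which every adenine library was above every control.

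**Figure D1:**
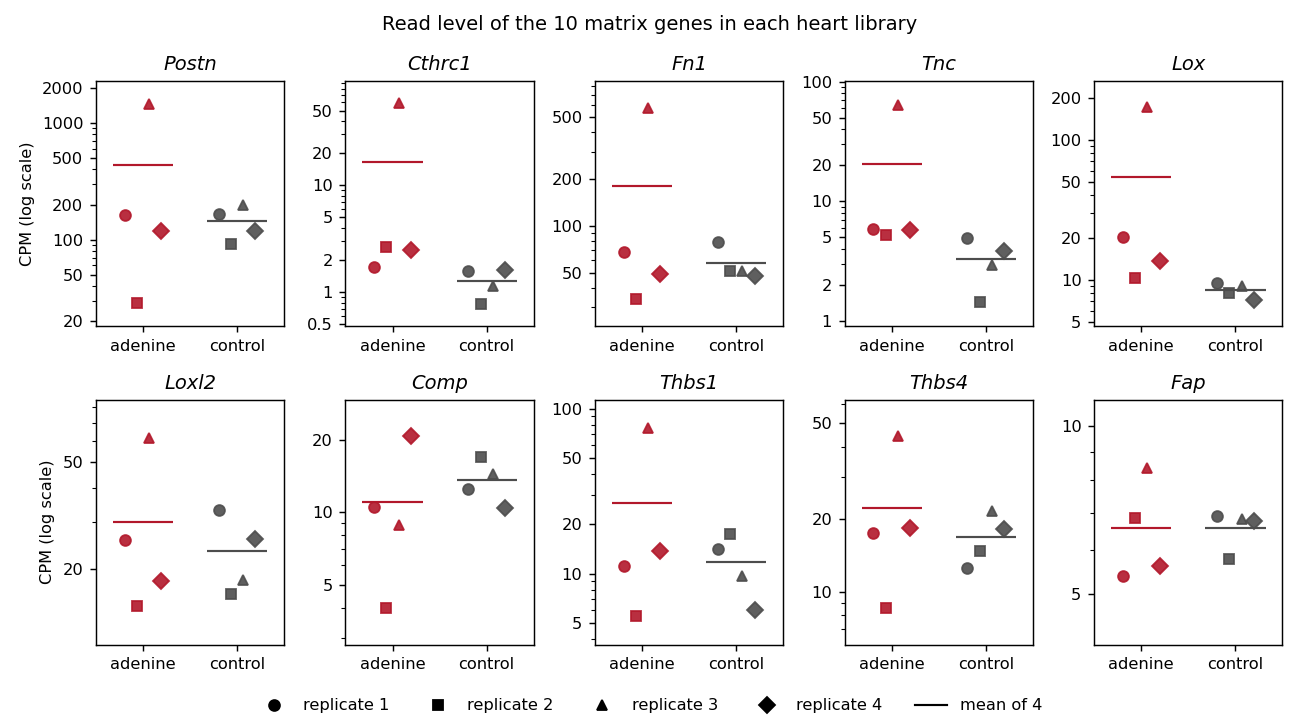
Level of each of the 10 genes in CPM on a log axis, with the 4 adenine libraries left of the 4 control libraries, symbols for the replicate number and a line at the mean of 4. Adenine 3 (triangle) is above every other library except for Comp, and it lifts the adenine mean of Postn to 441 CPM, where the other 3 adenine libraries lie between 28.7 and 163 CPM.

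No member passed the threshold. In the edgeR quasi-likelihood test, 0 of the 10 genes had an adjusted p under 0.05 in either direction, where 0.0398% of the genes tested were called higher and 0% lower. At an unadjusted p under 0.05, 4 of the 10 (Cthrc1, Lox, Tnc and Fn1) were higher, where 10.9% of genes were, and 0 were lower, where 6.63% were. DESeq2 called 0 members, where it called 0.866% higher and 0.991% lower of the 17662 genes with an adjusted p. At an unadjusted p under 0.05 it had 0 members higher and 0 lower, where 12.9% of genes were higher and 6.21% lower. It gave no p for Cthrc1, Fn1, Tnc and Lox, which it withholds for a count of outlying influence. DESeq2 gave no p for 0.463% of the genes tested. limma-voom called 0 members as well, where it called 0.0249% of genes higher and 0% lower. Tnc and Lox, 2 of the 10, were higher at an unadjusted p under 0.05 in limma-voom and 0 were lower, where 7.06% of genes were higher and 6.37% lower. The median log2 fold change (adenine minus control) of the 10 genes was 1.40, beside 0.05 over all genes tested. Without adenine 3 the median of the 10 was -0.19, beside 0.06 over all genes, and 3 of the 10 were positive. All 10 genes passed the low-count filter, both with and without adenine 3.

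Postn encodes periostin, a matricellular protein that binds collagen and integrins and marks activated fibroblasts of the injured mouse heart. On GRCm38 it lies at chr3:54361109-54391037 on the plus strand. Postn had 163, 28.7, 1452 and 119 CPM in adenine 1 to adenine 4, against 165, 92.4, 198 and 118 CPM in control 1 to control 4. The groups overlapped: adenine 3 was above all controls, adenine 1 and adenine 4 lay within their range, and adenine 2 was below it. The means were 441 ± 676 CPM on adenine and 143 ± 47.1 CPM in controls (SD, n = 4 each), with a log2 fold change of 1.62 (SE 0.83) and an adjusted p of 0.314 in edgeR. Without adenine 3 the log2 fold change was -0.47 (SE 0.39, adjusted p = 0.405 in edgeR).

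Fn1 encodes fibronectin, the glycoprotein of the provisional matrix that links integrins to collagen. It lies at chr1:71585520-71653200 on the minus strand. Fn1 had 67.4, 33.9, 572 and 48.9 CPM in adenine 1 to adenine 4, against 79.03, 51.5, 51.4 and 47.4 CPM in control 1 to control 4. As for Postn, adenine 3 was far above the controls, adenine 2 was below all of them, and the remaining adenine libraries lay among them. Fn1 had a log2 fold change of 1.66 (SE 0.71), with an adjusted p of 0.275 in edgeR, and -0.20 (SE 0.22, adjusted p = 0.527) without adenine 3. Exons of Fn1 share 292 bases with Apol7d on the opposite strand. No source used here says whether the counting used strand, so the value is uncertain to that extent.

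Tnc encodes tenascin-C, a hexameric matricellular glycoprotein that is nearly absent from the uninjured adult heart and appears at sites of injury. It lies at chr4:63959785-64047015 on the minus strand. Tnc had 5.92, 5.20, 64.5 and 5.72 CPM in adenine 1 to adenine 4, against 4.90, 1.42, 2.94 and 3.86 CPM in control 1 to control 4. All 4 adenine libraries were above all 4 controls, by a narrow margin between adenine 2 and control 1, and the other 3 adenine libraries lay close together. Tnc had a log2 fold change of 2.64 (SE 0.77), with an adjusted p of 0.216 in edgeR, and 0.77 (SE 0.32, adjusted p = 0.135) without adenine 3. 85 reads in adenine 2 and 42 reads in control 2 were the smallest counts on each diet. Exons of Tnc share 176 bases with 8030451A03Rik on the opposite strand.

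Cthrc1 encodes collagen triple helix repeat containing 1, a secreted glycoprotein of activated fibroblasts in healing tissue. It lies at chr15:39076932-39087121 on the plus strand. Cthrc1 had 1.72, 2.63, 58.6 and 2.47 CPM in adenine 1 to adenine 4, against 1.58, 0.78, 1.15 and 1.61 CPM in control 1 to control 4. Adenine 3 was 23.7 times the median of the other 3 adenine libraries, the largest such ratio among the 10 genes. The groups did not overlap, but adenine 1, with 43 reads, and control 4, with 42 reads, were almost level. Cthrc1 had a log2 fold change of 3.68 (SE 1.01), with an adjusted p of 0.203 in edgeR, and 0.81 (SE 0.36, adjusted p = 0.156) without adenine 3.

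Promoter sequence was at hand from RefSeq for 3 of the 10 genes, on GRCm38. The 250 bases before the transcription start are shown for Postn and Tnc, which stood high together in adenine 3, and for Thbs4, which was far less raised there. They run 5′ to 3′ on the strand of the gene, and capitals mark matches to the searched motifs. The Postn stretch is chr3:54360857-54361106 (plus strand), the Tnc stretch chr4:64047016-64047265 (minus strand) and the Thbs4 stretch chr13:92794819-92795068 (minus strand).
Postn: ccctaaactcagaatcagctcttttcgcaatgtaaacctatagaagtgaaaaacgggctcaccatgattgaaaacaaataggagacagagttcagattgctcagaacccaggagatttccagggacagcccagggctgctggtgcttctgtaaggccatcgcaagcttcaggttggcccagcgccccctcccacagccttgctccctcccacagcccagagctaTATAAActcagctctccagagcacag
Tnc: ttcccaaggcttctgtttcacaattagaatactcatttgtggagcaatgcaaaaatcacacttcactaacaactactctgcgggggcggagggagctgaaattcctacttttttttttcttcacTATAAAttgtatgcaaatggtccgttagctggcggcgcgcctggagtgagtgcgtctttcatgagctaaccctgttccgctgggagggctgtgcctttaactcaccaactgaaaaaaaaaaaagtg
Thbs4: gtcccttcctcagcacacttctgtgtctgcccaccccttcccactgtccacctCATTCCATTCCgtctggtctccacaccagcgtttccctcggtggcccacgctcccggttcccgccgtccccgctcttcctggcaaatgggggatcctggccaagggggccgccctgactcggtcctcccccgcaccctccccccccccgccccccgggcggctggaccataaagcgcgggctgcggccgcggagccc

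Both strands were searched for the TATA box (TATAAA), the AP-1 site (TGANTCA), the TEAD site (GGAATG), the CCAAT box (CCAAT) and the E-box CACGTG. Of 32851 RefSeq promoters cut to the same length, 12.4% held TATAAA, 6.75% TGANTCA, 12.6% GGAATG, 33.8% CCAAT and 6.02% CACGTG. Postn held TATAAA at 26 to 21 bases before its start and Tnc held it at 126 to 121 bases before its start. Thbs4 held no TATAAA, but a pair of overlapping GGAATG matches on the opposite strand, at 197 to 192 and 192 to 187 bases before its start. These matches describe the letters of the windows only. RefSeq lists a further start for Postn and for Tnc, whose windows are not shown.

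Lox and Loxl2 encode copper-dependent amine oxidases of a single family that oxidise lysines of collagen and elastin and so start the cross-linking of fibres. Lox lies at chr18:52516067-52529867 on the minus strand, and Loxl2 at chr14:69609068-69695834 on the plus strand. Lox had 20.1, 10.3, 172 and 13.5 CPM in adenine 1 to adenine 4, against 9.41, 8.06, 8.94 and 7.11 CPM in control 1 to control 4. All adenine libraries were above all controls, and the controls lay within a narrow range. The log2 fold change was 2.69 (SE 0.74), with an adjusted p of 0.203 in edgeR.

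Lox was the member that stood closest to the threshold without adenine 3. The log2 fold change was then 0.80 (SE 0.20), with an unadjusted p of 0.00117 and an adjusted p of 0.0673 in edgeR, and the means were 14.7 ± 5.01 CPM on adenine (SD, n = 3) and 8.38 ± 1.02 CPM in controls (SD, n = 4). Without both adenine 2 and adenine 3 it was 0.997 (SE 0.20, adjusted p = 0.108 in edgeR). Lox, Tnc and Cthrc1 had an unadjusted p under 0.05 without adenine 3, that is 3 of the 10 genes, where 18.9% of genes were higher at that level, and 0 members were lower, where 9.9% of genes were. At an adjusted p under 0.05, 0 members were called without adenine 3, where 0.178% of genes were called higher and 0.144% lower.

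Loxl2 had 25.7, 14.6, 61.2 and 18.0 CPM in adenine 1 to adenine 4, against 33.3, 16.2, 18.3 and 25.9 CPM in control 1 to control 4. Adenine 3 was above all controls, adenine 1 and adenine 4 lay within their range, and adenine 2 was below it. Loxl2 had a log2 fold change of 0.36 (SE 0.38, adjusted p = 0.579 in edgeR), and -0.27 (SE 0.24, adjusted p = 0.424) without adenine 3. Exons of Loxl2 share 301 bases with Gm27177 on the opposite strand and 7 bases with Mir6950 on its own strand, and exons of Lox share 30 bases with AC161119.1 on the opposite strand.

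Of the 3 thrombospondins, none passed the test. Thbs1, at chr2:118111876-118127133 on the plus strand, encodes a trimeric glycoprotein that activates latent TGF-beta and is also stored in platelets. It had 11.1, 5.50, 76.9 and 13.7 CPM in adenine 1 to adenine 4, against 14.2, 17.4, 9.65 and 6.04 CPM in control 1 to control 4. Only adenine 3 was above the controls. The log2 fold change was 1.19 (SE 0.64, adjusted p = 0.325 in edgeR), and -0.23 (SE 0.31, adjusted p = 0.62) without adenine 3. Exons of Thbs1 share 208 bases with Gm29233 on the opposite strand.

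Thbs4, at chr13:92751590-92794818 on the minus strand, encodes a pentameric thrombospondin that is induced in the overloaded mouse heart. It had 17.6, 8.56, 44.4 and 18.4 CPM in adenine 1 to adenine 4, against 12.6, 14.8, 21.7 and 18.2 CPM in control 1 to control 4. Adenine 3 was 2.52 times the median of the remaining adenine libraries, a smaller ratio than the 6.91 of Thbs1. Thbs4 had a log2 fold change of 0.41 (SE 0.37, adjusted p = 0.511 in edgeR), and -0.18 (SE 0.24, adjusted p = 0.607) without adenine 3.

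Comp, at chr8:70373558-70382066 on the plus strand, encodes cartilage oligomeric matrix protein, a pentameric thrombospondin of cartilage, tendon and vessel wall. Comp had 10.5, 3.97, 8.82 and 20.8 CPM in adenine 1 to adenine 4, against 12.5, 16.9, 14.5 and 10.4 CPM in control 1 to control 4. It was the single member for which adenine 3 was not the highest library: adenine 3 and adenine 2 lay below all controls, and adenine 4 above all. The log2 fold change was -0.29 (SE 0.36, adjusted p = 0.63 in edgeR). It was -0.20 without adenine 3 (SE 0.34, adjusted p = 0.696 in edgeR) and -0.77 without adenine 4 (adjusted p = 0.371 in edgeR). The summed level of 12 markers of tendon, cartilage and valve cells was 28.6 to 45.1 CPM on adenine and 26.4 to 42.3 CPM in controls, and none of these genes was without reads in all libraries. Scx had the highest total of the 12, at 6.19 to 14.4 CPM per library. Others had few reads, such as Tnmd with 10 to 30 and Chad with 20 to 42 per library.

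Fap, at chr2:62500943-62574075 on the minus strand, encodes fibroblast activation protein, a serine protease on the surface of activated fibroblasts. Fap had 5.4, 6.85, 8.41 and 5.61 CPM in adenine 1 to adenine 4, against 6.90, 5.79, 6.82 and 6.76 CPM in control 1 to control 4. Fap varied least of the 10 genes over all 4 libraries of each diet: adenine 3 was 1.5 times the median of the remaining adenine libraries. The means were 6.56 ± 1.38 CPM on adenine and 6.57 ± 0.520 CPM in controls (SD, n = 4 each). The log2 fold change was 0.0001 (SE 0.19, adjusted p = 0.9999 in edgeR), and -0.16 (SE 0.19, adjusted p = 0.558) without adenine 3.

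**Figure D2:**
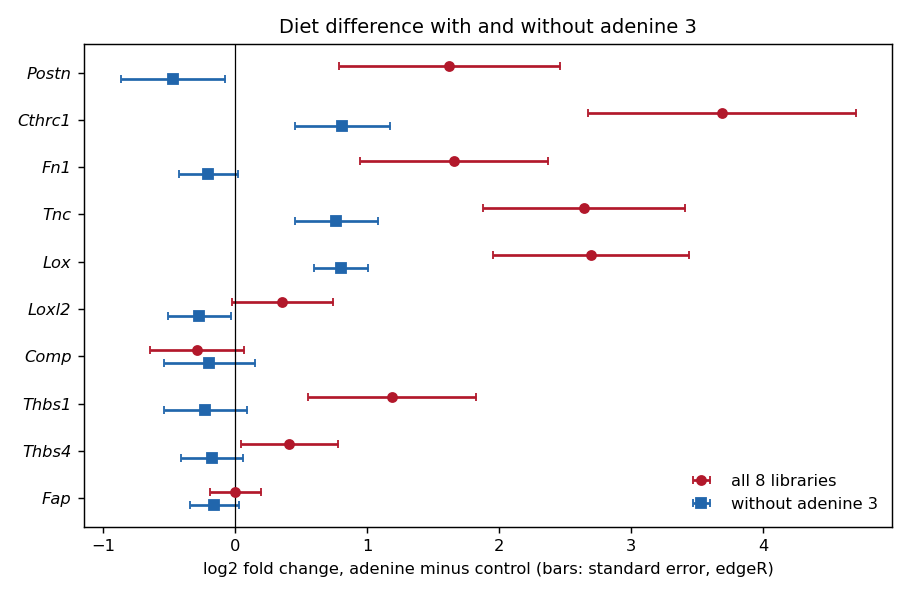
Log2 fold change of each gene (adenine minus control, edgeR) on the horizontal axis, with bars of 1 standard error, for all 8 libraries (circles) and without adenine 3 (squares). Without adenine 3, Cthrc1, Tnc and Lox stay at 0.77 to 0.81, and the other 7 genes lie between -0.47 and -0.16.

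The separation of the groups for Lox, Tnc and Cthrc1, 3 of 10 genes, was read against 3.45% of all genes tested, in which every adenine library was above every control. 0 members lay below, where 3.84% of genes did. Lox kept its separation under 5 scalings of the libraries. Tnc lost it with DESeq2 size factors, and Cthrc1 lost it with total counts, which left 2 members each time, where 3.82% and 3.04% of genes had such a separation. The size of these differences depended on how the tool weighs adenine 3. With limma-voom, which averages log values, the log2 fold changes were 2.29 (SE 1.24) for Cthrc1, 1.93 (SE 0.87) for Tnc, 1.68 (SE 0.70) for Lox and 0.24 (SE 0.82) for Postn, with adjusted p-values of 0.399, 0.368, 0.357 and 0.882. limma-voom was not run without adenine 3.

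The members differed widely in the ratio of adenine 3 to the control mean. This ratio was 45.8 for Cthrc1, 20.5 for Lox, 19.6 for Tnc, 10.1 for Postn, 9.98 for Fn1 and 6.51 for Thbs1. The ratios were 2.64 for Thbs4, 2.61 for Loxl2, 1.28 for Fap and 0.65 for Comp. No test was made of the differences between these ratios.

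Adenine 2 was the lowest of the 8 libraries for 6 of the 10 genes, Postn, Fn1, Loxl2, Comp, Thbs1 and Thbs4, where it was lowest for 18.5% of genes tested. Its Postn level was 28.7 CPM, from 469 reads. Tnc, Cthrc1 and Lox were above all controls in that library too. The 3 adenine libraries other than adenine 3 therefore did not share a single level: their coefficient of variation was 66.3% for Postn and 72.3% for Comp, but 6.63% for Tnc and 13.2% for Fap.

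**Figure D3:**
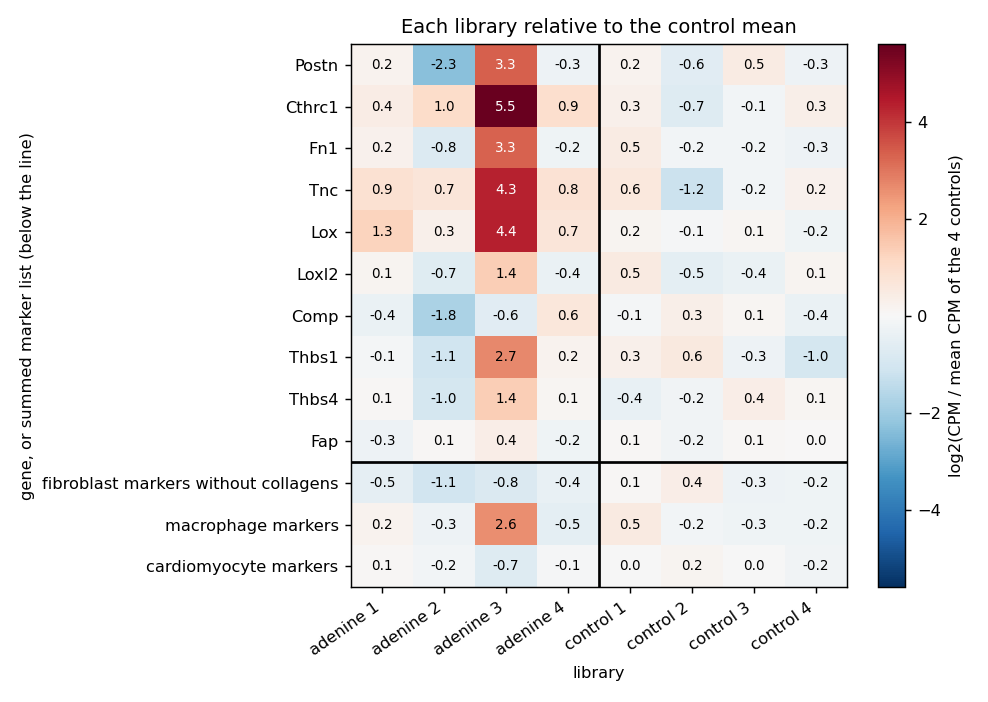
Log2 ratio of each library's CPM to the mean of the 4 controls, for the 10 genes (rows above the line) and for 3 summed marker lists (below it), with the 4 adenine libraries left of the 4 control libraries. In adenine 3, Cthrc1 reaches 5.52 and the macrophage sum 2.60, while the fibroblast markers without collagens are at -0.79 and the cardiomyocyte markers at -0.72.

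Most markers of resident fibroblasts did not follow the members. Of 14 such markers, 4 were highest in adenine 3, where 13.8% of genes tested were: the 3 collagen genes of the list, and Mfap5. For 3 of the 14, adenine 3 was at least 5 times the median of the remaining adenine libraries, where 0.627% of genes were. Mfap5 had 174 CPM in adenine 3, against 17.9 to 58.3 CPM in the remaining adenine libraries and 37.1 to 50.6 CPM in controls. Col1a1, a chain of type I collagen, had 433 CPM in adenine 3, against 45.7 to 101 CPM in the remaining adenine libraries and 86.7 to 163 CPM in controls. The 11 markers other than collagens, Mfap5 among them, summed to 1666, 1116, 1344 and 1747 CPM in adenine 1 to adenine 4. In control 1 to control 4 they summed to 2439, 2988, 1892 and 1988 CPM. Every adenine library was thus below every control in that sum, and adenine 3 lay among the remaining adenine libraries. Gsn and Dcn were the most abundant of the 11 in every library and weigh most in the sum. Gsn was at 249 CPM in adenine 3, 427 to 667 CPM in the remaining adenine libraries and 566 to 1177 CPM in controls. Dcn was at 419 to 569 CPM on adenine and 605 to 1027.5 CPM in controls. Pi16 (117 and 146 CPM) and Mfap5 (58.3 and 54.6 CPM) were above all controls in adenine 1 and adenine 4. Whether the separation holds without Gsn and Dcn was not tested. Per 100 CPM of these 11 markers, Postn stood at 108 CPM in adenine 3, at 2.57 to 9.82 CPM in the remaining adenine libraries and at 3.09 to 10.4 CPM in controls. On that scale Lox, Tnc and Cthrc1 again had no overlap between diets, but so did 28.2% of all genes tested in the higher direction, so 3 of 10 is near the background. In the lower direction 0 members had no overlap, where 0.0299% of genes did.

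Among lists of other cell types, only that of macrophages had every gene, 13 of 13, highest in adenine 3, where 13.8% of genes were. Of these 13, 8 were at least 5 times the median of the remaining adenine libraries there, where 0.627% of genes were. Lyz2, the lysozyme of myeloid cells, had 2065 CPM in adenine 3, against 146 to 256.4 CPM in the remaining adenine libraries. None of the 13 was without reads. Without adenine 3, edgeR called 2 of the 13 higher, where it called 0.178% of genes, and 0 lower, where it called 0.144%. Their median log2 fold change was then -0.17. DESeq2, on all libraries, also called 2 higher, where it called 0.866% of genes with an adjusted p. At least Cd14 of the 13 had no adjusted p in DESeq2 and could not be called there. Gpnmb had 42.4, 25.2 and 10.2 CPM in adenine 1, adenine 2 and adenine 4, against 4.09 to 5.14 CPM in controls. Lgals3 had 28.9, 18.3 and 10.5 CPM there, against 4.81 to 7.12 CPM in controls. The part of macrophages in the member values was not tested. Platelet markers, listed because platelets carry Thbs1, summed to 46.5 CPM in adenine 3, 18.1 to 21.1 CPM in the remaining adenine libraries and 19.2 to 26.7 CPM in controls. Of the 7 platelet markers, 3 were highest in adenine 3, where 13.8% of genes tested were. These were Pf4, a platelet chemokine, at 39.3 CPM, Ppbp at 1.46 CPM and Treml1 at 2.16 CPM. The 6 markers other than Pf4 summed to 7.20 CPM in adenine 3, 7.18 to 11.1 CPM in the remaining adenine libraries and 3.83 to 6.08 CPM in controls. The platelet integrin gene Itga2b was at 3.22 CPM in adenine 3 but at 4.998 to 7.28 CPM in the remaining adenine libraries. Gp1bb had no reads in any library. Of 12 smooth muscle and pericyte markers, 1 was highest in adenine 3, the intermediate filament gene Des, at 2630 CPM there, and 4 were lowest there. The 11 markers other than Des summed to 819 CPM in adenine 3, 751 to 1026 CPM in the remaining adenine libraries and 922 to 1302 CPM in controls. Bone-forming cell markers summed to 29.5 CPM in adenine 3, 34.7 to 43.6 CPM in the remaining adenine libraries and 29.3 to 34.9 CPM in controls. Alpl made up 20.1 CPM of it in adenine 3. The other 8 summed to 9.39 CPM there, 9.995 to 21.3 CPM in the remaining adenine libraries and 4.27 to 9.94 CPM in controls. Each of these 8 but Runx2 had under 100 reads in every library. Of the 12 tendon, cartilage and valve markers, 2 were highest in adenine 3, the transcription factor genes Scx and Sox9, where 13.8% of genes were. Another 4 were lowest there, Tnmd, Chad, Acan and Cilp2, each with only 10 to 28 reads in that library. The share of all genes lowest in adenine 3 was not counted. Erythroid markers, of which 7 were in the table, separated the diets in the other direction: they summed to 1677 to 3112 CPM on adenine and 7059 to 26177 CPM in controls, and adenine 3, at 3112 CPM, did not stand apart. Without adenine 3, edgeR called 6 of the 7 lower, where it called 0.144% of genes lower. Their part in the separation of Lox, Tnc and Cthrc1 was not tested.

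Levels were compared between genes only per length, as TPM values, scaled by transcript length and depth, computed from the counts and the merged exon length. Postn was the most abundant member in both groups, with 86.7 ± 136 TPM on adenine and 26.9 ± 9.17 TPM in controls (SD, n = 4 each). Without adenine 3 the adenine mean of Postn was 18.8 TPM (n = 3), below that of the controls. Its control values did not overlap those of any other member. Thbs4, Fn1, Comp and Loxl2 followed in controls, at 8.32 ± 2.11, 7.998 ± 2.30, 7.34 ± 0.927 and 7.14 ± 2.77 TPM (SD, n = 4), and their values overlapped. Thbs1 at 3.10 ± 1.16 TPM and Lox at 2.85 ± 0.386 TPM overlapped too, below Loxl2. Fap (1.89 ± 0.277 TPM), Cthrc1 (1.33 ± 0.491 TPM) and Tnc (0.702 ± 0.346 TPM) were the least abundant in controls, and Fap lay below Lox without overlap.

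The order was different in adenine 3. Cthrc1, the second lowest of the 10 genes in controls, was at 63.9 TPM there, close to Lox at 62.7 TPM and below Postn at 290.2 TPM and Fn1 at 85.2 TPM. Thbs4 stood at 23.5 TPM and Thbs1 at 22.02 TPM. Fap, at 2.58 TPM, was the lowest of the 10 in that library, and Comp was at 5.17 TPM.

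**Figure D4:**
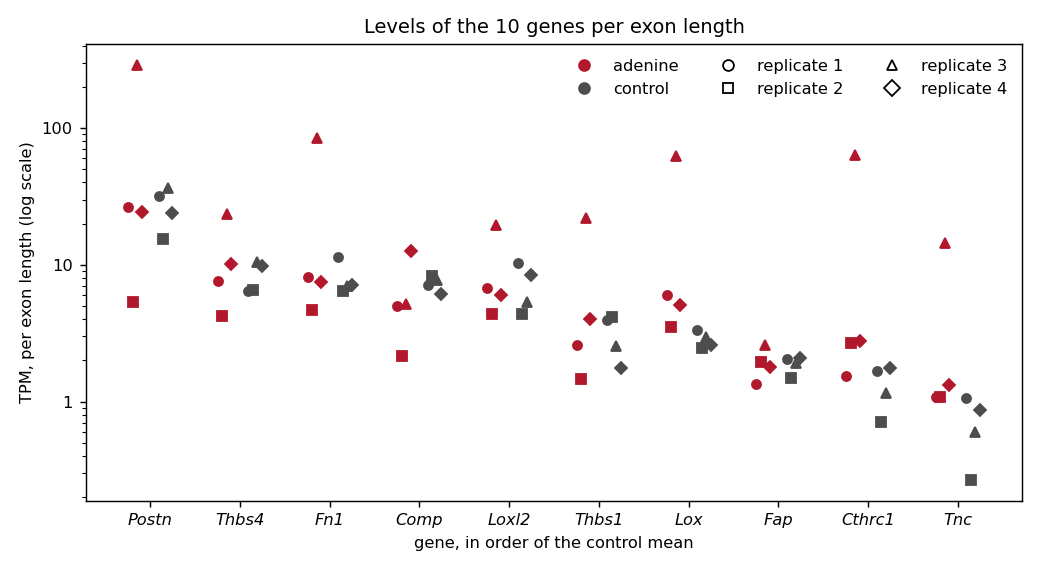
TPM of each gene per library on a log axis, with adenine libraries left of control libraries at each gene and genes ordered by the control mean. Cthrc1 and Lox reach 63.9 and 62.7 TPM in adenine 3, while Comp and Fap stay near the other libraries at 5.17 and 2.58 TPM.

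The genes around the members in the matrix were taken from lists. Their counts are read against all genes tested: at an unadjusted p under 0.05, 10.9% were higher and 6.63% lower. Of the 17662 genes with an adjusted p in DESeq2, it called 0.866% higher and 0.991% lower. The list counts also include genes without one, such as Spp1. Without adenine 3, edgeR called 0.178% higher and 0.144% lower. Of 21 matricellular genes, which include the SPARC, CCN and SMOC families, 0 were called in edgeR, 2 were higher and 8 lower at an unadjusted p under 0.05, and DESeq2 called 0 higher and 3 lower. Their median log2 fold change was -0.20, or -0.51 without adenine 3. Spp1, which encodes osteopontin, had 7.46 (SE 1.45, adjusted p = 0.108), and Smoc2, a SPARC-related matricellular gene, had -1.11 (SE 0.19, adjusted p = 0.0744 in edgeR). Both passed in edgeR without adenine 3, at 3.91 (adjusted p = 0.000945) and -0.95 (adjusted p = 0.0154). DESeq2 gave Spp1 no adjusted p, so Spp1 could not be called there. The 3 genes that DESeq2 called lower were Smoc2 (adjusted p = 7.27e-05), Sparcl1 (0.0131) and Spon2 (0.0131). 2 of these 21 genes were at least 5 times the median of the remaining adenine libraries in adenine 3, where 0.627% of all genes were.

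Of 15 other genes of collagen modification and cross-linking, 0 were called in edgeR, 4 were higher and 1 lower at an unadjusted p under 0.05, and DESeq2 called 0. Their median log2 fold change was -0.04, or -0.066 without adenine 3. P4ha3, a subunit of collagen prolyl hydroxylase, had 1.67 (SE 0.52, adjusted p = 0.228 in edgeR), or 0.71 without adenine 3. Tgm2, a transglutaminase that cross-links matrix proteins, had 0.59 (SE 0.21, adjusted p = 0.248), or 0.36 without adenine 3. None of the 15 was at least 5 times the median of the remaining adenine libraries in adenine 3, as Lox was.

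Of 22 receptors that bind these matrix proteins, integrins among them, 0 were called in edgeR, 1 was higher and 4 were lower at an unadjusted p under 0.05, and DESeq2 called 0 higher and 3 lower. Their median was 0.04, or -0.10 without adenine 3. DESeq2 called Ddr2, Itga8 and the integrin chain Itgb6. Ddr2, a collagen receptor kinase of fibroblasts, had a log2 fold change of -0.66 (SE 0.16, adjusted p = 0.149 in edgeR), or -0.67 (adjusted p = 0.0671) without adenine 3. Itga8, an integrin chain that binds fibronectin and tenascin-C, had -1.41 (SE 0.40, adjusted p = 0.213), or -1.19 (adjusted p = 0.0771) without adenine 3.

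Of 21 genes of elastic fibres and proteoglycans, 0 were called in edgeR, 2 were higher and 8 lower at an unadjusted p under 0.05, and DESeq2 called 0 higher and 3 lower. Their median was -0.14, or -0.56 without adenine 3. The 3 genes that DESeq2 called were Dcn (adjusted p = 0.0369), Efemp1 (0.00248) and Prelp (0.00239). Without adenine 3, edgeR called 1 of the 21, Lum, which encodes the proteoglycan lumican, at -1.5025 (SE 0.24, adjusted p = 0.0125). In adenine 3, Lum had 115 CPM, against 30.3 to 53.6 CPM in the remaining adenine libraries and 79.6 to 152 CPM in controls. Prelp, a small leucine-rich proteoglycan, had -1.02 (SE 0.21, adjusted p = 0.115 in edgeR), or -0.93 (adjusted p = 0.0572) without adenine 3. Efemp1, a fibulin, had -1.38 (SE 0.30, adjusted p = 0.128), or -1.25 (adjusted p = 0.0581) without adenine 3.

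Of 19 genes of the TGF-beta pathway and its response, 0 were called in edgeR, 2 were higher and 4 lower at an unadjusted p under 0.05, and DESeq2 called 0. Their median was 0.19, or -0.27 without adenine 3. Runx1, a transcription factor, had a log2 fold change of 1.38 (SE 0.41, adjusted p = 0.222 in edgeR), or 0.64 without adenine 3.

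Of 8 peptidases related to Fap or of like specificity, 0 were called in edgeR or DESeq2, and 1 was higher and 0 lower at an unadjusted p under 0.05. Their median was -0.15, or -0.14 without adenine 3. Dpp6, a channel-associated relative without peptidase activity, had 1.02 (SE 0.43, adjusted p = 0.274 in edgeR), or 1.25 (adjusted p = 0.0798) without adenine 3. Dpp10, a relative of the same kind, had 0.50 (SE 0.42, adjusted p = 0.482), or 0.71 (adjusted p = 0.22) without adenine 3.

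The search for like genes covered 15085 genes averaging 1 CPM or more, with members and genes bearing only provisional names left out. The 5 whose pattern over the 8 libraries was most like the median of the members were Cd14, Ccr1, Tlr7, Clec5a and Cd53. Cd14 is also 1 of the 13 macrophage markers above. The root mean square difference was 0.29 log2 units for Cd14 and 0.32 for Cd53, on log2 CPM centred on the control mean. Cd14 had 10.2, 8.07, 54.2 and 7.93 CPM in adenine 1 to adenine 4, against 10.9, 7.59, 7.79 and 7.64 CPM in control 1 to control 4. Since they were chosen for this likeness, their levels are a description only.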

How the data were processed

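The authors deposited unscaled read counts per gene, 1 column per library. FastQC 0.11.9, STAR 2.7.6a and the build GRCm38.p6 were used, per the submitters' processing notes. No source used here gives the counting program, its annotation or its strand setting. Groups and replicate numbers come from the titles. Of 27304 identifiers, 27275 matched GENCODE M21 (GRCm38), which gave coordinates, overlaps and exon lengths.

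The tests ran under edgeR 4.0.16 (R 4.3.3): low-count filter by group, TMM factors, a quasi-likelihood test of the diet on all 8 libraries, and Benjamini-Hochberg adjustment over the 20093 genes tested, with an adjusted p under 0.05 called. Standard errors were derived from the F statistic. DESeq2 1.42.0 and limma 3.58.1 were alternatives, and the scripts were tested on simulated data. Total counts of 15626620 to 33886385 set the counting precision. No library was taken as a duplicate: within a group, pairs gave 20 to 96.8 as chi-square divided by genes.

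The members and the lists were chosen with earlier results of these data known. All members are named. Of each pathway list, up to 4 called genes or else the 2 with the lowest p are named, with members left out, and the 5 genes most like the members, for which 0.5 CPM was added before log2. A result that this rule names is not reported here. Marker genes, ratios and no-overlap counts were chosen after their values were seen. Removing adenine 2 and adenine 3 together and the other scalings of the no-overlap count were added after seeing the data.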

Additional observations from a re-analysis of the deposited data

Results flagged for a closer look

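Within groups of 4 libraries, 19 of 54 groups of values had a highest or lowest library that Dixon's test sets apart from the others. Chance flags about 1 in 20 groups, but the 19 cannot be read against that: 6 of them come from genes picked for their likeness to the members, and most of the rest repeat adenine 3. Among the members, adenine 3 was set apart as highest on adenine for Postn (1452 CPM), Cthrc1 (58.6 CPM), Fn1 (572 CPM), Tnc (64.5 CPM), Lox (172 CPM) and Thbs1 (76.9 CPM). Control 1 was set apart as highest control for Fn1 (79.03 CPM), and control 2 as lowest control for Fap (5.79 CPM).

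Adenine 3 was set apart in the same way for summed macrophage markers (3193 CPM), summed platelet markers (46.5 CPM), and for Cd14 (54.2 CPM), Ccr1 (17.5 CPM), Tlr7 (14.2 CPM), Clec5a (15.4 CPM) and Cd53 (58.8 CPM), the 5 genes picked for their likeness to the members. Among controls, control 1 was set apart for summed macrophage markers (746 CPM), summed erythroid markers (26177 CPM) and Cd14 (10.9 CPM), and control 2 for summed atrial markers (4886 CPM).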

How the results depend on the processing

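0 members were called under any of the 18 other settings, nor at an adjusted p under 0.1. Over all genes, the count called higher was 18 with upper-quartile factors, 153 with DESeq2, 5 with limma-voom, 20 without adenine 2 and 3, 21 at an adjusted p under 0.1, and 1 to 37 when 1 library was left out. The count called lower was 1 with upper-quartile factors or no filter, 175 with DESeq2, 6 with robust edgeR, 2 without adenine 2 and 3, 10 at an adjusted p under 0.1, and 0 to 30 when 1 library was left out. Upper-quartile factors moved the median of all genes to 0.20.

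With the replicate number as a block, 16 genes were called higher and 16 lower, and 0 members. The numbers do not pair the samples: same-numbered libraries correlated at 0.073, -0.246, -0.133 and 0.203, and 1 of 8 correlated best with its own number. The block moved Postn to 0.22, Cthrc1 to 1.95, Tnc to 1.71, Lox to 1.58, Fn1 to 0.51, Thbs1 to 0.54, Loxl2 to 0.15, Thbs4 to 0.20, Comp to -0.48, Fap to -0.0198 and the median of the members to 0.37. limma-voom moved that median to 0.43.

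The median of the members was -0.19 to 1.76 when 1 library was left out, and 0.0677 without adenine 2 and 3. List medians with 1 library left out were -0.51 to -0.0673 for matricellular genes, -0.10 to 0.0926 for receptors, -0.56 to -0.0152 for elastic fibres and proteoglycans, and -0.27 to 0.20 for the TGF-beta list, which had -0.18 without adenine 2 and 3. Upper-quartile factors gave 0.19 for receptors and 0.0013 for peptidases. With 1 library left out, Postn ranged over -0.47 to 2.01, Fn1 -0.20 to 2.03, Loxl2 -0.27 to 0.58, Thbs1 -0.23 to 1.52, Thbs4 -0.18 to 0.67, Fap -0.16 to 0.0848, Ccr1 -0.0349 to 1.77 and Clec5a -0.0785 to 1.68. The lowest of these came without adenine 3. Without adenine 2 and 3, the sign also turned for Postn (-0.0303), Loxl2 (-0.11), Comp (0.18), Fap (-0.27) and Clec5a (-0.0358). Fap was -0.0038 with DESeq2 size factors, -0.0031 with DESeq2, -0.0081 with limma-voom and -0.0049 without a filter. Cthrc1, Tnc and Lox were positive in the 17 settings that gave an adjusted p, at 0.69 to 4.12, 0.77 to 3.004 and 0.80 to 3.07.

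Levels per length depend on adenine 3 and on what is counted in the total. Without adenine 3 the adenine mean was 18.8 TPM for Postn, 2.33 for Cthrc1, 6.79 for Fn1, 1.16 for Tnc, 4.85 for Lox, 5.70 for Loxl2, 6.59 for Comp, 2.702 for Thbs1, 7.28 for Thbs4 and 1.69 for Fap. Without mitochondrially encoded genes the adenine mean and the control mean were 228.5 and 67.2 TPM for Postn, 70.1 and 19.7 for Fn1, 11.9 and 1.73 for Tnc, 51.3 and 7.11 for Lox, 25.5 and 17.6 for Loxl2, 17.3 and 18.5 for Comp, 20.1 and 7.70 for Thbs1, 31.1 and 21.1 for Thbs4, 5.48 and 4.74 for Fap, and the control mean of Cthrc1 was 3.30 TPM. With the longest transcript as length, the control mean of Postn was 39.5 TPM, and Fap had 3.37 TPM on adenine and 3.30 TPM in controls. Members with under 100 reads in a library, such as Cthrc1, are limited by counting error.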
